A study of Mus musculus with 4 samples.

Results

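U6 is the spliceosomal small nuclear RNA (snRNA) that pairs with the 5' splice site and forms part of the catalytic centre of the spliceosome. RNA polymerase III makes it, and mammalian genomes carry many near-identical U6 copies, a few of them active genes and most of them pseudogenes. LARP7 is a La-related protein that binds the uridine tail of 7SK RNA, the scaffold that keeps the elongation factor P-TEFb inactive, and it also contacts U6 and helps guide its modification. Single copies of U6 length were examined here: gene models named Rnu6, Rnu6-ps2 or Gm22000 to Gm26999, of the same length as Rnu6, with at least 20 estimated counts summed over the 4 libraries. Of 421 models with such a name and length, 90 reached that sum, out of 50600 gene models in all. Their sequences were not compared with U6, so the models are called copies by name and length alone.

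The study pulled RNAs out of testis lysate from C57BL/6 mice aged 8 weeks. The method, RNA immunoprecipitation (RIP), uses beads carrying an antibody to take a protein together with its RNAs. There were 2 libraries from an antibody to LARP7 and 2 from IgG, an antibody with no chosen target that gives the background. No genotype or treatment separates the groups. Whether the replicates were different animals is not in the labels, so p-values cover library-to-library spread alone, possibly technical. Libraries held 4411271 to 6994514 estimated counts, of inserts selected for small RNA size. Testis germ cell markers were present, with 8 of 8 above 0 in every library, and summed to 177 to 224 CPM (counts scaled to the library total) with the LARP7 antibody and 1447 to 1657 with IgG. Sertoli cell markers (5 genes) summed to 4.01 to 5.07 and 29.2 to 35.5, and Leydig cell markers (5 genes) to 27.5 to 28.5 and 71.0 to 85.6. Markers of peritubular, vascular and blood cells (6 genes) summed to 10.1 to 11.7 with the LARP7 antibody, and to 37.8 and 13.1 in IgG replicates 1 and 2. The part of these levels in the results was not tested.

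The counts are estimates. RSEM, the program the authors used, divides a read that maps to several models among them, and reports beside each estimate a posterior standard deviation (SD), the uncertainty of that division. Among copies above 0, 97.6% to 100% of the estimates per library were not whole numbers. The membership rule used the counts themselves, and most of those came from the LARP7 libraries. The rule therefore favoured copies with many LARP7 counts. The counts below describe the members without supporting a difference between the antibodies.

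Rnu6 itself (ENSMUSG00000095132.1, chromosome 17, 13432033 to 13432139, overlapping no other gene in the RefSeq table) was an ordinary member. It had counts of 186 and 797 with the LARP7 antibody and of 9.91 and 4.55 with IgG, and ranked 40 of 90. Its posterior SDs were 118, 720, 6.06 and 24.4 in the same order, so in IgG replicate 2 the SD was 5.37 times the count. Its posterior means were 155, 955, 5.38 and 33.0. The SD in IgG replicate 2 was thus below the posterior mean there, and by posterior mean IgG replicate 2 lay above IgG replicate 1. The authors' 95% credibility bounds in LARP7 replicate 1 ran from 0.0003 to 28.2 TPM (a level scaled for model length and depth) around an estimate of 14.1 TPM. Rnu6 counts lay higher with the LARP7 antibody in both replicates, but how much of the reads shared with other models belonged to this locus was not resolved. Rnu6-ps2 was listed at 0 counts in all 4 libraries, with posterior means of 3.58, 0.67, 1.96 and 1.05, and is no member.

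The members fell into a plateau and a tail. The 43 copies with the most counts had summed counts from 928 to 1541, and the next copy, Gm24797, had 735. This break was noticed in the data and is used only to describe. It is 1.26-fold, and the break after Gm24797 is larger (735 to 381, 1.93-fold). Gm24797 is kept apart here because its counts lay almost wholly in the replicate 2 libraries of both antibodies, so the statements below on all 43 copies depend on that choice. With Gm24797 added, 43 of 44 copies had more counts in each LARP7 library than in either IgG library, and the share of the members' counts in IgG replicate 2 was 71.3% in place of 57.4%. In LARP7 replicate 1 the 43 copies ran from 105 to 413 counts with a median of 244, and in LARP7 replicate 2 from 633 to 1278 with a median of 887. In IgG replicate 1 they ran from 0 to 16.0 with a median of 9.91, and in IgG replicate 2 from 0.03 to 74.4 with a median of 22.4. Every copy of the 43 had more counts in each LARP7 library than in either IgG library. This was so for 25 of the other 47 and for 11.9% of all 12234 genes tested. These sets are unlike, as only 30 of the 47 passed the filter on low counts that all 12234 genes passed. The rule used these counts, so nothing is read from these shares.

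**Figure D1:**
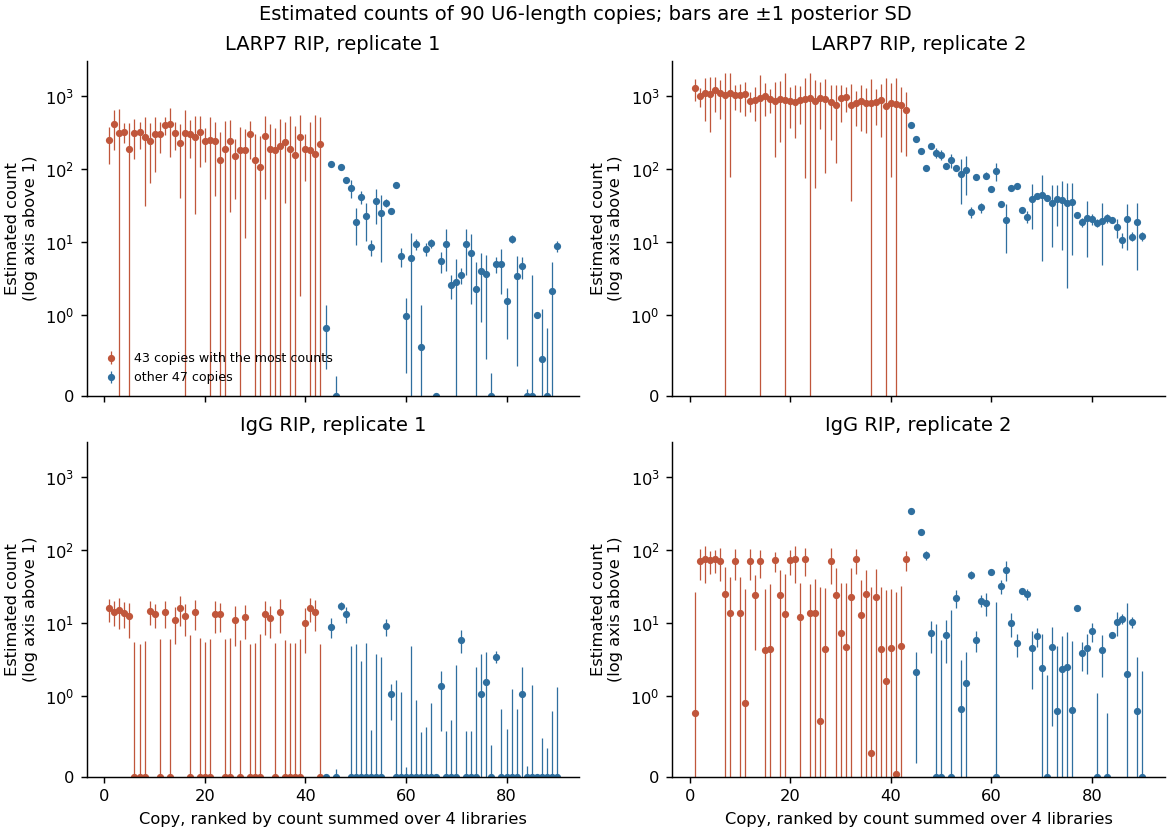
Estimated counts (y axis, logarithmic above 1) of the 90 U6-length copies in the 4 libraries, ranked by their summed count (x axis), with bars of 1 posterior SD. The 43 most counted copies form a plateau between 633 and 1278 counts in LARP7 replicate 2 with wide bars, and in IgG replicate 1 they lie at 0 or between 9.91 and 16.0.

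The posterior SDs of the 43 copies were about as large as the counts, so differences among the copies were hard to resolve. In every library, 43 of 43 estimates lay within 2 of the copy's own posterior SDs of the mean over the 43 copies, a wide range for copies grouped by similar sums. Within 1 posterior SD lay 42 and 43 copies in the LARP7 libraries, but 8 and 17 in the IgG libraries. That mean was 246 and 910 counts in the LARP7 libraries and 6.86 and 32.2 in the IgG libraries. The median posterior SD over count was 0.887 and 0.681 in the LARP7 libraries and 1.43 in IgG replicate 2. It was 0.449 in IgG replicate 1, where only the 22 copies above 0 could enter. The posterior SD equalled or exceeded the count in 17 of 43 copies in LARP7 replicate 1, 7 in LARP7 replicate 2 and 27 in IgG replicate 2. For scale, the median of the square root of the count, the error that counting alone would give, was 29.8 in LARP7 replicate 2, against a median posterior SD of 590. The credibility bounds of TPM included the mean TPM of the 43 copies in 43, 42, 43 and 43 cases (LARP7 replicates 1 and 2, IgG replicates 1 and 2), and the lower bound was under 0.01 TPM for 33 copies in LARP7 replicate 1.

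The order of these copies also changed between libraries. Across the 43 copies, which share reads and are not independent, Spearman's rho of counts was 0.22 between the LARP7 libraries, 0.06 between the IgG libraries and 0.05 to 0.29 across antibodies. Of the 8 copies with the most counts in each LARP7 library, 3 were the same (Gm22360, Gm23217 and Gm25790). Gm25583 led LARP7 replicate 1 with 413 counts, and Gm24205 led LARP7 replicate 2 with 1278. By posterior mean the leading copies were others, Gm25256 (482) in LARP7 replicate 1 and Gm26295 (1607) in LARP7 replicate 2. The posterior mean of Gm24205 in LARP7 replicate 2 was 665, below the mean of 909 over the 43 copies. Gm24205 had 246 counts in LARP7 replicate 1, 15.7 in IgG replicate 1 and 0.79 in IgG replicate 2, the last with a posterior SD of 25.4.

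Estimates in the IgG libraries sat on steps. In IgG replicate 1, 22 of the 43 copies had 9.91 to 16.0 counts and 21 had 0. In IgG replicate 2, 15 copies had 69.4 to 74.4 counts, 7 had 22.4 to 24.5, 7 had 12.1 to 13.6, 8 had 4.27 to 7.23 and 6 had 0.03 to 1.60. The posterior mean of the count, a second estimate in the deposited files, did not follow these steps. In IgG replicate 2 its median was 29.6 for the 15 copies on the top step and 29.0 for the 6 on the lowest, with a range of 21.9 to 42.0 over all 43. In IgG replicate 1 the posterior means ran from 4.64 to 6.54 for copies above 0 and from 4.72 to 6.46 for copies at 0. The coefficient of variation over the 43 copies was 100% for the estimate and 8.82% for the posterior mean in IgG replicate 1, and 94.7% and 16.1% in IgG replicate 2. In LARP7 replicate 2 it was lower for the estimate, 14.3% against 30.8%. Copies at 0 and copies above 0 in IgG replicate 1 thus had posterior means in nearly the same range.

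**Figure D2:**
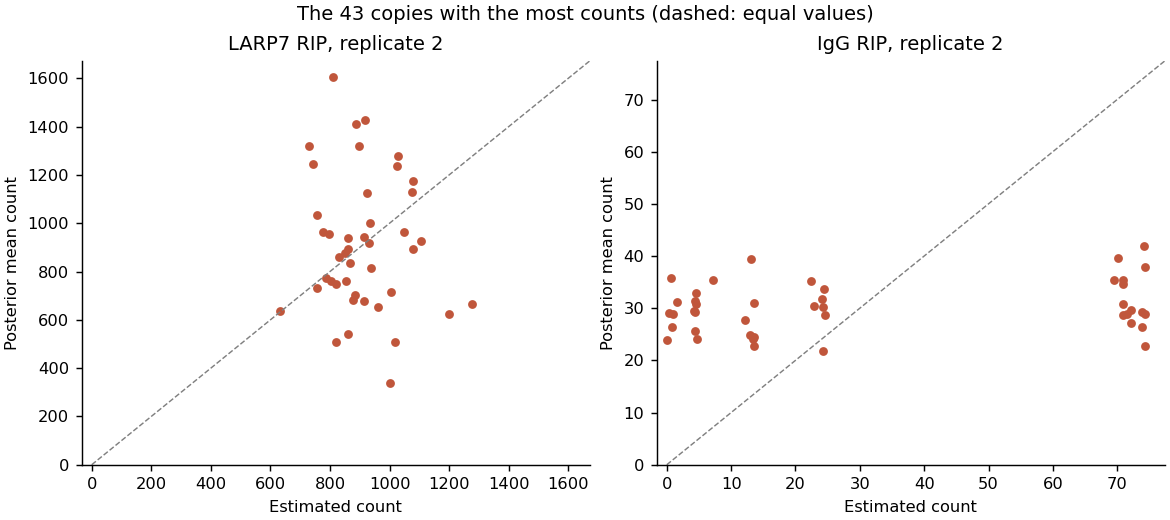
Estimated count (x axis) against posterior mean count (y axis) for the 43 most counted copies in LARP7 replicate 2 and IgG replicate 2, with a dashed line where both are equal. In IgG replicate 2 the estimates stand in columns from 0.03 to 74.4 while the posterior means stay between 21.9 and 42.0.

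**Figure D3:**
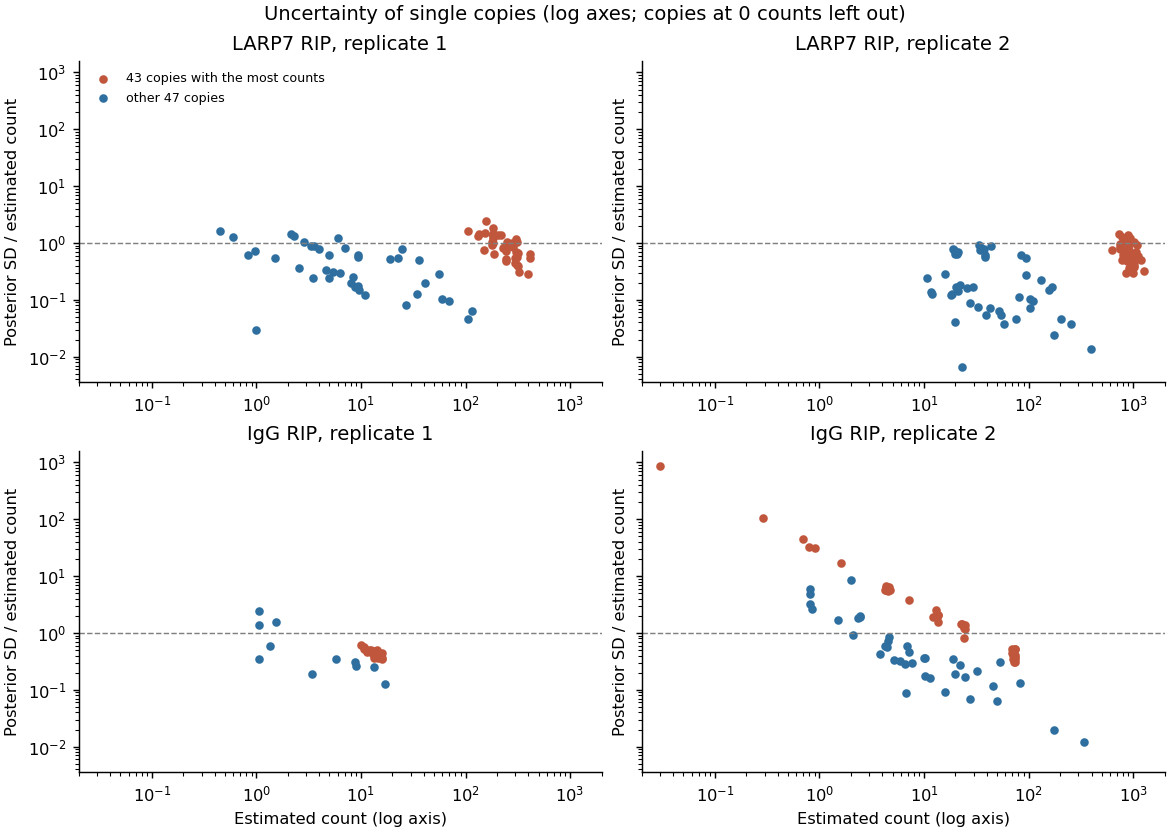
Posterior SD divided by estimated count (y axis, logarithmic) against estimated count (x axis, logarithmic) for copies above 0, with a dashed line at a ratio of 1. The 43 most counted copies have ratios of 0.280 or more in every library, while Gm24797, the member with the smallest ratio in IgG replicate 2, lies near 0.01.

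The other 47 copies were mixed, and better resolved at the median. Their median posterior SD over count was 0.362 and 0.148 in the LARP7 libraries, and 16 of the 47 were under 0.1 in LARP7 replicate 2, against 0 of the 43. The highest ratio among the 47 in that library was 0.930. The lower TPM bound was under 0.01 for 24 and 14 of the 47 in LARP7 replicates 1 and 2, against 33 and 10 of the 43. Among the 61 members with 100 or more summed counts, the ratio of summed posterior SD to summed count was lowest for Gm24797 (0.0138), Gm22638 (0.0228) and Gm22628 (0.0563). It was highest for Gm25869 (1.34), Gm22246 (1.33) and Gm25127 (1.26), all of the plateau. Counts of the 47 ran from 10.7 to 398 in LARP7 replicate 2 and from 0 to 116 in LARP7 replicate 1, with 6 copies at 0. In IgG replicate 1, 36 of the 47 were at 0, and in IgG replicate 2, 8 were.

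Gm24797 and Gm22638 had a different pattern across libraries. Gm24797 (ENSMUSG00000094419.1, chromosome 7, 38792638 to 38792744) had 0.84 and 398 counts with the LARP7 antibody and 0 and 336 with IgG. Gm22638 (ENSMUSG00000094848.1) had 0 and 176 counts with the LARP7 antibody and 0 and 174 with IgG. Both were high in the replicate 2 libraries of both antibodies and at or near 0 in the replicate 1 libraries, so the groups overlapped. Posterior SDs in the replicate 2 libraries were 5.46 and 4.14 for Gm24797 and 4.20 and 3.44 for Gm22638. The copies lie 412 kb apart, 977 bases inside the lncRNA locus 1700010N08Rik and 966 bases inside the lncRNA locus Gm28453, counted from the lower coordinate of each. The counts of those 2 lncRNA models did not share the pattern: 14.2, 18.8, 37.0 and 0 for 1700010N08Rik and 17.6, 10.5, 42.4 and 12.9 for Gm28453 (LARP7 replicates 1 and 2, IgG replicates 1 and 2).

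In 14 of the 47 copies, and in 0 of the 43, IgG replicate 2 held at least 50% of the count of LARP7 replicate 2. In 9 of the 47 the smaller of these counts was at least 0.8 of the larger, without scaling for depth. Gm22061 had 52.1 counts in LARP7 replicate 2 and 50.0 in IgG replicate 2, and Gm25596 had 27.4 and 27.3. In replicate 1 Gm22061 had 0.98 and 0, and Gm25596 had 0 in both. These 14 copies held 86.9% of the IgG replicate 2 counts of the 47 and 30.1% of their LARP7 replicate 2 counts. Of them, 3 also had counts in replicate 1 of both antibodies. They were Gm23941 (105 and 104 counts with LARP7, 16.9 and 83.5 with IgG), Gm25380 (34.4 and 25.6, against 8.94 and 45.6) and Gm23140 (5.45 and 22.2, against 1.36 and 24.7). Which feature of the replicate 2 libraries moves with these copies was not tested.

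**Figure D4:**
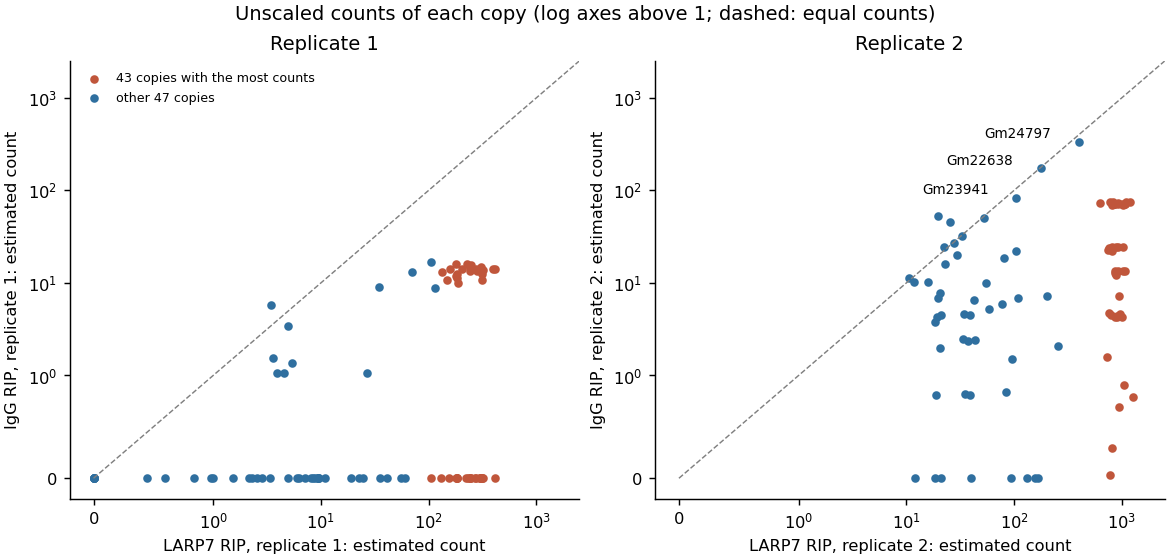
Unscaled counts of each of the 90 copies with the LARP7 antibody (x axis) and with IgG (y axis) in replicate 1 and replicate 2, on axes that are logarithmic above 1, with a dashed line at equal counts. In replicate 2, Gm24797 (398 and 336), Gm22638 (176 and 174) and Gm23941 (104 and 83.5) lie near the line and the 43 most counted copies lie well below it.

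Other copies outside the plateau had most of their counts with the LARP7 antibody. Gm22628 had 116 and 255 counts against 8.77 and 2.08, with posterior SDs of 7.47 and 9.40 in the LARP7 libraries. Gm22618 had 69.8 and 204 against 13.2 and 7.24. Gm22969 had 55.4 and 168, Gm22623 18.9 and 156, and Gm24182 22.4 and 133, each listed at 0 in both IgG libraries. The IgG posterior SDs of these 3 copies were 4.80 to 5.26 in replicate 1 and 5.74 to 14.9 in replicate 2. For these 5 copies the estimated counts of the antibody groups did not overlap, with both LARP7 counts above both IgG counts. That order was found in 25 copies outside the plateau, tested or not, and in 11.9% of all 12234 genes tested. The 5 copies were grouped here after their counts were seen, and the membership rule used the same counts. Nothing is therefore read from the lack of overlap. Gm22623 and Gm24182 were poorly resolved in LARP7 replicate 1, with posterior SD over count of 0.524 and 0.540. Gm24182 had a posterior mean of 27.5 (posterior SD 12.1) in LARP7 replicate 1 and of 17.4 (posterior SD 14.9) in IgG replicate 2, which lie within these SDs of each other. At the edge of the rule, Gm25450, Gm24424 and Gm26127 had sums of 21.9, 21.9 and 20.7, and just outside it Gm25633, Gm23148 and Gm24389 had 18.7, 18.4 and 18.1. Gm23148 had all of its counts in IgG replicate 2. Of the 331 models under 20, 214 were at 0 in all libraries.

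The share of U6-length counts on the plateau differed between libraries. The 43 copies took 93.3% and 92.5% of the members' counts in the LARP7 libraries, and 82.4% and 57.4% in the IgG libraries. Scaled to the library total, the 43 copies together had 1526 and 6020 CPM with the LARP7 antibody and 42.2 and 314 with IgG. The other 47 had 109 and 485, and 9.03 and 233. The plateau was thus apart between the antibodies in every library, and the tail overlapped, with IgG replicate 2 above LARP7 replicate 1. The sets were formed on these counts and no test was made.

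**Figure D5:**
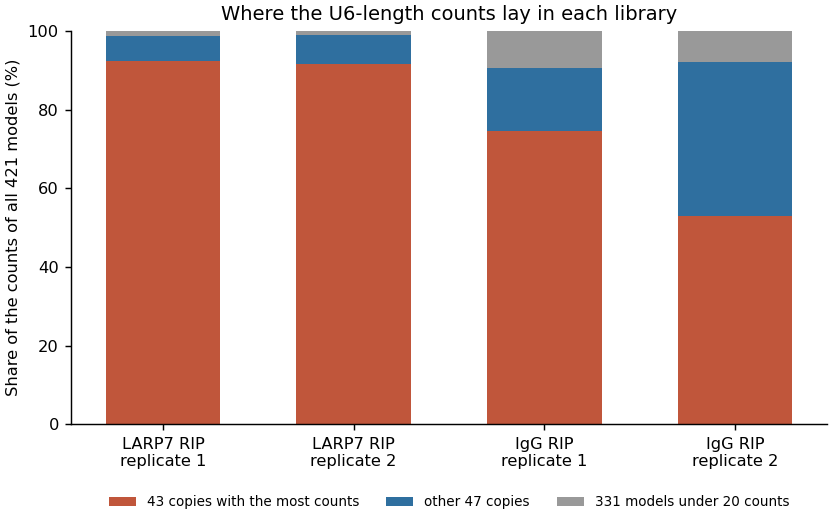
Share (y axis, percent) of the counts of all 421 models that fell on the 43 most counted copies, the other 47 members and the 331 models under 20 counts, in each library (x axis). The 43 copies hold over 90% of both LARP7 bars and 53.0% of the IgG replicate 2 bar.

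By mean share of the estimated counts, the copies that held most counts were partly shared by the antibodies. The mean share of the members' counts in the LARP7 libraries was highest for Gm25583 (3.01%), Gm26496 (2.86%), Gm22288 (2.78%), Gm25790 (2.69%), Gm22092 (2.66%), Gm22360 (2.65%), Gm23217 (2.61%) and Gm24205 (2.60%), all of the plateau. In the IgG libraries it was highest for Gm24797 (6.96%), Gm23941 (4.09%), Gm22092 (3.62%), Gm22638 (3.60%), Gm25737 (3.47%), Gm22288 (3.46%), Gm25583 (3.46%) and Gm25790 (3.40%). These lists of 8, made from group means, share 4 copies. Lists of 8 from single libraries of different antibodies shared 0 to 2. The 4 copies did not all stand out by posterior mean. In LARP7 replicate 1 it was 99.6 for Gm25790, 116 for Gm22288, 271 for Gm25583 and 324 for Gm22092. The mean over the 43 copies was 245. The leading copy of a library held 3.65% and 3.02% of the members' counts with the LARP7 antibody, and 4.72% (Gm23941) and 13.9% (Gm24797) with IgG. Group means were 3.33% ± 0.44 and 9.32% ± 6.50 (SD, n = 2 each), a difference smaller than the spread between the IgG libraries.

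It took 18 and 21 copies to reach 50% of the members' counts in the LARP7 libraries and 12 in each IgG library. The inverse Simpson number, the number of equally filled copies that would give the same evenness, was 46.6 ± 2.86 against 25.5 ± 2.61 (SD, n = 2 each), with no overlap. From posterior means it was 44.6 and 45.4 in the LARP7 libraries and 57.9 and 27.6 in the IgG libraries, which then lay on both sides of the LARP7 values. The smaller number of filled copies with IgG therefore held for the estimate and not for the posterior mean. In draws of 356 counts, the sum of the rounded member counts of IgG replicate 1, 55.6 and 59.7 copies would be expected in the LARP7 libraries, 58.2 in IgG replicate 2 and 33.0 in IgG replicate 1 (exact rarefaction). With 2 libraries against 2, the smallest exact two-sided permutation p is 0.333, so no test was made on these values.

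The family was compared between antibodies as a whole, summed over all 421 models whatever their count, so that neither the threshold nor the division of reads among these copies entered. The sum was 11438 and 42724 counts with the LARP7 antibody and 395 and 2618 with IgG. It was higher with the LARP7 antibody, by 29.0-fold, at 6418 ± 4860 against 222 ± 270 CPM with TMM-scaled library sizes (SD, n = 2 each). TMM is a scaling that sets most genes to no change. The log2 fold change was 4.86 (SE 1.30, edgeR quasi-likelihood adjusted p = 0.0263), in a table where 14.8% of rows were called higher. The 2 libraries of each group differed widely, and the call was lost without LARP7 replicate 2 (3.74, edgeR adjusted p = 0.107). Without IgG replicate 2 the value was 7.74, without IgG replicate 1 it was 3.95, with library totals in place of TMM 3.66, and with limma on TPM 2.97. The sum of posterior means gave 4.84.

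In the same fit on single models, edgeR called 37 of the 73 copies tested higher and 0 lower, where 14.5% of all genes tested were called higher and 9.69% lower. At an unadjusted edgeR p under 0.05, 0 copies were lower, where 2224 of all 12234 genes tested were lower and 2563 higher. DESeq2 called 42 higher and 0 lower, with 14% of all genes higher and 5.96% lower. The remaining 17 members did not pass the filter on low counts. Members were chosen on these counts and share reads, so nothing is read from these numbers. Of the 43 plateau copies 27 were called, and the calls moved with the step a copy had in the IgG libraries. In IgG replicate 2, on the top step 5 of 15 were called, with log2 fold changes of 4.17 to 4.93, and below it 22 of 28, each at 5.62 or more. In IgG replicate 1, 17 of the 22 copies above 0 were called and 10 of the 21 at 0. With posterior means rounded in place of estimates, all 43 were called, with log2 fold changes between 4.74 and 6.59, and 53 of 74 members in total, where 15.9% of all genes were called higher. Counts of called members also moved with single libraries: 23 without LARP7 replicate 2, 66 without IgG replicate 1 and 86 without IgG replicate 2, where 66, 90 and 88 were tested. The shares of all genes called higher in those fits were 4.62%, 12.2% and 15.2%. Without a filter on low counts 63 of 90 copies and 7.56% of all genes were called higher. Leaving out LARP7 replicate 1 kept the number called within 1.5 times, but not all copies called in the main fit were called again.

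Positions were known for 87 of the 90 members in RefSeq (GRCm38.p6, which mm10 is built on), and Gm22969, Gm25380 and Gm24859 were not matched. RefSeq lists all 87 as snRNA. The members lay on 20 chromosomes, led by chromosome 3 with 10 copies. The 43 plateau copies were spread over 18 chromosomes, with 19 inside the bounds of a protein-coding gene, 3 in an lncRNA locus and 21 in no other gene. Of the 44 other copies with a position, 13, 4 and 27 fell in these classes. Gm24205 lies at chromosome 8, 66002346 to 66002452, within Marchf1, and Gm25583 at chromosome 2, 141640490 to 141640596, within Macrod2. The table gives gene bounds only, so exon, intron and strand were not resolved. Close neighbours were rare: Gm22821, Gm25484 and Gm24641 lie within 62.7 kb on chromosome 9, and Gm24019 and Gm26243 lie 76.3 kb apart on chromosome 10. Counts of the chromosome 9 trio were alike, at 7.11 to 9.42 and 34.0 to 38.7 with the LARP7 antibody and at 0 and 0.81 to 4.65 with IgG. Their posterior SDs were 5.41 to 5.81 and 22.1 to 25.5 in the LARP7 libraries, or 0.570 to 0.803 of the count. The 3 copies were therefore poorly resolved, and nothing is read from the likeness.

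Some models of nearly the same length also had many counts. Among snRNA models of 100 to 110 nt that are not of Rnu6 length, 10 had 20 or more counts. The largest were Gm22363 and Gm22505, both 108 nt long. Their summed counts were 933 and 668, the first within the plateau's range of 928 to 1541. Gm22363 had 408 and 479 counts with the LARP7 antibody and 17.0 and 28.5 with IgG. Gm22505 had 246 and 405, against 16.2 and 1.07. Their posterior SDs of 205 and 205 in LARP7 replicate 2 lay far above the 4.95 of Gm23924, another 108-nt model with 299 counts there.

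Other multicopy RNAs were set beside the U6-length copies. The 55 copies of 5S rRNA with 20 or more counts were led by a copy with 3.62% to 3.67% of their counts in each of the 4 libraries, and 14 copies (25.5%) held 50% in every library. The leading U6-length copy held 3.65% and 3.02% in the LARP7 libraries, where 18 and 21 of the 90 copies held 50%. For 5S rRNA the median posterior SD over count was 0.339 to 0.541, which overlaps the 0.444 to 0.654 of the U6-length members. The 6 snRNA models of Rnu5g length (116 nt) had ratios of 0.0008 to 0.0305, and in each library 2 of them held 50%. The 11 models of Rnu1a1 length (164 nt) had 0.230 to 0.733, a range that includes all 4 U6-length medians, and the 13 of Rnu2-10 length had 0.0855 to 0.319. No test of these differences was made.

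Other genes of the U6 pathway were taken as a list. Among 17 mRNAs of proteins that bind, trim, cap or modify U6 or 7SK, 15 were tested and 1 was called higher and 1 lower in edgeR, where 14.5% and 9.69% of all genes were. With library totals 0 were higher and 5 lower, where 3.95% and 47.1% of all genes were. That scaling put the median gene at a log2 fold change of -1.47, and TMM at -0.05. Mettl16, the enzyme that methylates an adenosine of U6, had 195 and 258 counts against 111 and 104 (log2 fold change 2.14, SE 0.47, edgeR adjusted p = 0.0130). Its call was lost with library totals (0.78) and without IgG replicate 1 (1.74, edgeR adjusted p = 0.0888). Larp7 mRNA had 55.8 and 39.0 counts against 457 and 183 (log2 fold change -1.46, edgeR adjusted p = 0.0291). It was -2.93 and called with library totals, and was not called with any of 3 libraries left out: LARP7 replicate 2 (-1.15), or IgG replicate 1 (-1.30) or 2 (-1.55). Of the U6 guide snoRNAs, 3 of the 4 listed were tested, and Snord8 and Snord7 were called higher. Snord8 had 234 and 439 counts against 46 and 48 (log2 fold change 3.87, SE 0.56, edgeR adjusted p = 0.00377). Its call was kept with each library left out (3.40 to 4.53). Snord7 had 15 and 33 counts against 23 and 6, so its unscaled counts overlapped (2.01, edgeR adjusted p = 0.0462). Snord7 lost its call with library totals (0.59) and on leaving out either LARP7 library (2.40 and 1.47) or IgG replicate 2 (1.72).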

How the data were processed

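Per the labels' protocols, testis lysates were incubated with antibody on beads, and a small RNA kit gave the libraries. The tools were RSEM, Bowtie2 and cutadapt on mm10, per the submitters' processing notes. Versions: not given in the sources used here. Per the file headers, the deposited tables give expected counts, TPM, posterior mean counts, posterior SDs, credibility bounds and an effective length, which for models of Rnu6 length was 45.8 to 48.3 nt. Expected counts were rounded before edgeR 4.0.16 in R 4.3.3 (filterByExpr, TMM, robust quasi-likelihood F tests, two-sided, Benjamini-Hochberg over 12234 single models or 12161 rows with the family summed, threshold 0.05). TMM factors were 0.558 and 0.673 (LARP7) and 1.85 and 1.44 (IgG). SE is the unshrunk log2 fold change over the root of F. Alternatives used DESeq2 1.42.0, limma 3.58.1 on log2(TPM + 1), other scalings, no filter, left-out libraries and posterior means, the last added after the data were seen. The fit was also run on simulated data with the same spread set for all genes, and no result above rests on that run.

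Members and lists were chosen with earlier results of these data known. Named copies were Rnu6 and Rnu6-ps2, the 8 with the largest mean share in each antibody group, the 3 lowest and 3 highest ratios of posterior SD to count, and the 3 models on each side of the threshold. The other copies named, and the division at 43 copies, were chosen after their values were seen.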

Additional observations from a re-analysis of the deposited data

How the results depend on the processing

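The summed family kept its direction under all 11 alternatives run and its side of the threshold under 10; values ran from 2.97 (limma on TPM) to 7.74, and leaving out single libraries gave 3.74 to 7.74, with the call lost without LARP7 replicate 2 (edgeR adjusted p = 0.107). The number of copies called higher was 37, 63 without a filter, and 23 to 86 with single libraries left out, while the other 9 alternatives kept it within 1.5 times. The number of copies holding 50% of counts with IgG was 12 and became 22.5 from posterior means. The share of the leading copy with the LARP7 antibody went from 3.33% to 4.04% from posterior means. Over members with 20 or more counts in a library, the median posterior SD over count with IgG was 0.396. That value rests on IgG replicate 2 alone, as the highest member count in IgG replicate 1 was 16.9. Over all members above 0 the median in IgG replicate 2 was 0.5875, and the mean of both IgG libraries was 0.516. Taking models with identical counts as 1 changed nothing, as 0 members shared all counts. With the replicate number as a block, the summed family had 5.58 (edgeR adjusted p = 0.00158) and 52 copies were called higher, with 17.1% of all genes. Same-numbered libraries deviated together (r = 0.323 across 7080 genes, which are not independent), but the labels do not say what a number shares. IgG replicate 1 held 358 member counts, which limits what it can show of single copies.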
